A study of Homo sapiens with 12 samples.

Results

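The genes described here are 10 secreted cytokines and growth factors, CSF1, PDGFA, CCL2, CCL3, CXCL8, IL1B, TNF, VEGFA, TGFB1 and OSM. They were chosen by symbol, with earlier results of these data known. They make up 10 of the 46639 gene symbols and 44 of the 100502 transcript rows. The data are 12 RNA-seq libraries of MOLM-13, an acute myeloid leukemia (AML) cell line that carries an MLL-AF9 fusion. In the labels, the 4 groups of 3 libraries are untreated, DAC (100 nM decitabine, an inhibitor of DNA methylation), ATRA (1 µM all-trans retinoic acid, the ligand of retinoic acid receptors) and DAC+ATRA. All groups shared the medium, which the labels give as RPMI with 20% FCS and 5 ng/ml of GM-CSF, itself a myeloid cytokine. The study's own methods give less serum and name no GM-CSF, and they add ATRA later than the first dose of DAC.

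The libraries are called technical triplicates of 1 cell line, so a p-value here measures the spread between libraries of 1 experiment. The untreated libraries are labelled 96 h and the treated ones 72 h, so time and treatment cannot be told apart in any comparison with untreated, whereas the treated groups share 1 time. The series' design text gives 72 h for the harvest and names no other time, so the 96 h label is in conflict with it. No vehicle library was used here. Recovered reads ranged from 8.95 to 11.9 M (M for mega) per library in untreated, 4.67 to 6.95 M in DAC, 8.36 to 10.7 M in ATRA and 5.61 to 7.16 M in DAC+ATRA. The 10 myeloid markers (PTPRC, CD33, SPI1, CEBPA, MPO, LYZ, FLT3, CSF1R, HOXA9 and MEIS1) each had a mean of at least 10 normalised counts in every group. Their levels differed between groups. Summed per library, they came to 70298 to 78541 in untreated and 181818 to 222505 with DAC. The sums were 23141 to 28385 with ATRA and 68573 to 72848 with DAC+ATRA. Lists of other cell types were summed per library. The T cell list (CD3D, CD3E and CD3G) came to 11.9 to 25.2 normalised counts in untreated, 20.4 to 40.8 with DAC, 4.18 to 13.4 with ATRA and 22.5 to 27.996 with DAC+ATRA, mostly from CD3D, with CD3E at 0 outside DAC+ATRA. Of the B cell markers, CD79A was at 1.25 to 4.06, 8.71 to 26.7, 12.5 to 20.1 and 26.6 to 39.8 in the same order, and MS4A1 was at 0 throughout. The erythroid list stayed between 0 and 2.04. COL1A1 gave the fibroblast list a sum of 4.87 to 10.7 normalised counts per library in untreated, 17.8 to 23.9 in DAC, 64.5 to 86.3 in ATRA and 39.2 to 58.2 in DAC+ATRA, beside COL1A2 and COL3A1 at 0. The epithelial list summed to 32.6 to 72.5 and the endothelial list to 1399 to 6162 over all libraries, the latter higher without ATRA than with it. Almost all of the endothelial sum was PECAM1, with means of 4123 in untreated, 5758 with DAC, 1443 with ATRA and 1951 with DAC+ATRA. VWF had means of 37.4, 9.49, 10.7 and 3.76 in the same order, and CDH5 did not exceed 0.78 in any library. The part of these markers in the results was not tested. A lower level in a bulk library can come from fewer cells with the transcript or from less RNA per cell, which cannot be told apart.

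Cytokines and growth factors are small secreted proteins that act on receptors of the same or neighbouring cells. Monocytes and macrophages are a main source of many of them: CCL2, CCL3 and CXCL8 (interleukin-8) draw leukocytes to a site, IL1B, TNF and OSM drive inflammation, CSF1 supports the survival and growth of monocytes and macrophages, and PDGFA, VEGFA and TGFB1 act on stroma, vessels and immune cells. The genes of the inflammatory cytokines and chemokines among them are often switched on by NF-kB and AP-1, and their mRNAs are often short-lived. Protein and secretion were not measured here.

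Levels are normalised counts, that is reads divided by 1 size factor per library. They were summed over the transcript rows of a gene, and since rows of different genes caught different shares of a gene's reads, levels are compared between groups and not between genes. Changes are differences of log2(normalised count + 1) with their standard error (SE) from limma, fitted over 10642 protein-coding genes, and a gene was called at a Benjamini-Hochberg adjusted p under 0.01. Of the 10 members, 8 were tested. CCL3 and TNF held too few reads for the filter on low values.

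The promoters of CXCL8 and PDGFA are shown first, because both genes fell with DAC and have unlike start regions. RefSeq (GRCh38.p14) gave a window of 250 bases upstream of a listed transcript for 6 members, namely CCL3, CXCL8, IL1B, PDGFA, TGFB1 and TNF. The stretches printed are those parts of a window that lie outside every annotated exon. Capitals mark the AP-1 letters TGANTCA in CXCL8 (chr4:73740319-73740518, plus strand, 5′ of the gene at chr4:73740519-73743716) and each CpG in PDGFA (chr7:519847-519959, minus strand, next to the start of the most read PDGFA transcript).
CXCL8: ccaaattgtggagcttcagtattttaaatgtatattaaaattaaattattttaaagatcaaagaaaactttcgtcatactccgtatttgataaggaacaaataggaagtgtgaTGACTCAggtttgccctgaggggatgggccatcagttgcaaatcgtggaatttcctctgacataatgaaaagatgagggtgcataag
PDGFA: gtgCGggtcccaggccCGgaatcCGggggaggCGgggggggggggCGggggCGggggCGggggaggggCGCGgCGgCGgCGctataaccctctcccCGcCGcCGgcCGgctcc

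CpG, the dinucleotide that DNA methylation acts on, occurred 40 times in the 250 bases of PDGFA and 4 times in those of CXCL8. The other windows held 21 (TGFB1), 10 (TNF), 2 (CCL3) and 1 (IL1B), where the median of all 35116 windows was 11 with quartiles of 3 and 23. The AP-1 letters began 137 bases before the start of the most read CXCL8 transcript (chr4:73740569) and were found in 6.57% of all windows on either strand. A TATA box (TATAAA, in 10.7% of windows) lay 31 bases before that start and 29 bases before the starts of CCL3 and TNF. Both strands were also searched for a strict form of the NF-kB site, which does not count near variants and was matched in TGFB1 and in 9.96% of all windows, and for a retinoid half-site (AGGTCA, with G also allowed as the first letter and T as the third), found in IL1B alone and in 33.8% of all windows. None of the motifs overlapped in these windows. Methylation and binding were not measured in these libraries, and a match of letters is a description only.

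CSF1, the growth factor of the monocyte lineage, was high with ATRA alone and nearly gone with both drugs. Its normalised counts were 27.996, 31.7 and 16.9 in the untreated libraries, 6.36, 7.84 and 7.62 with DAC, 111, 150 and 72.7 with ATRA, and 1.40, 2.25 and 1.02 with DAC+ATRA. No 2 of the groups overlapped, and the order from low to high was DAC+ATRA, DAC, untreated, ATRA. The 3 DAC+ATRA libraries held 4 CSF1 reads in all, against 412 in the 3 ATRA libraries, a ratio of 72.7 after scaling for depth (exact 95% interval 28.2 to 268, counting error only).

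In limma, CSF1 was higher with ATRA than in untreated by 2.06 ± 0.38 on the log2 scale (SE, adjusted p = 2.27e-04). Under both drugs its log2 change was -3.36 ± 0.38 against untreated (limma, adjusted p = 8.31e-07) and -5.42 ± 0.38 against ATRA (limma, adjusted p = 7.53e-09). The size of these falls depends on the setting: against ATRA it ranged from -4.10 with a pseudocount of 5 to -6.19 by DESeq2. The change with DAC alone, -1.64 ± 0.38 (limma, adjusted p = 0.00554), was lost without any 1 of untreated replicates 1 and 2 and DAC replicates 1 and 2 (adjusted p up to 0.0417). That call was also lost in a fit of only the compared groups (0.0189), without the filter on low values (0.0143) and with a pseudocount of 0.1 (0.0106). The step from DAC to DAC+ATRA, a change of -1.72 ± 0.38 (limma, adjusted p = 0.00178), rested on 17 against 4 reads and was not called by DESeq2 (0.0348) or edgeR (0.0298). Nor was it called in limma with a pseudocount of 5 (0.0220) or in a fit of only the compared groups (0.0650).

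OSM, a cytokine of the IL-6 family made by myeloid cells, was lower under each treatment. It was at 580, 582 and 534 normalised counts in untreated, 155, 132 and 87.1 with DAC, 108, 93.8 and 46.8 with ATRA, and 32.2, 6.75 and 19.4 with DAC+ATRA. Every treated library lay below every untreated one, and the DAC+ATRA libraries lay below all others, while DAC and ATRA overlapped each other. Against untreated its log2 change was -2.21 ± 0.39 under DAC (limma, adjusted p = 5.40e-04), -2.84 ± 0.39 under ATRA (8.17e-06) and -5.02 ± 0.39 under both drugs (4.52e-09). The means thus fell from 565 to 19.5 normalised counts, a ratio of 29.1. The DAC effect was nearly the same size without ATRA and with it, -2.21 and -2.18, and their difference was 0.03 with a 95% interval of -1.11 to 1.17, which spans more than 2-fold either way.

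IL1B, a cytokine of the inflammasome pathway, was higher wherever ATRA was given. Its normalised counts were 74.7, 58.5 and 59.0 in untreated, 89.0, 58.0 and 80.5 with DAC, 144, 213 and 161 with ATRA, and 98.0, 124 and 153 with DAC+ATRA. Both ATRA groups lay above untreated and DAC in every library, untreated overlapped with DAC, and ATRA overlapped with DAC+ATRA. The change against untreated was 1.41 ± 0.22 under ATRA (limma, adjusted p = 3.75e-05) and 0.94 ± 0.22 under both drugs (0.00186). The latter call was lost without untreated replicate 2 (adjusted p = 0.0111) and without DAC+ATRA replicate 3 (0.0178).

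CCL2, the chemokine that recruits monocytes, had the largest rise with ATRA among the members. It was at 541, 447 and 344 normalised counts in untreated and at 461, 510 and 540 with DAC, 2 groups that overlapped. With ATRA it was at 27313, 28630 and 22280, and with DAC+ATRA at 6337, 5692 and 5315. The ATRA and DAC+ATRA groups were apart from each other and from the other two. The mean was 58.7 times the untreated mean with ATRA and 13.01 times with DAC+ATRA. The limma change was 5.89 ± 0.14 under ATRA (adjusted p = 1.52e-16) and 3.72 ± 0.14 under both drugs (1.46e-13), and CCL2 was thus lower with DAC+ATRA than with ATRA by a log2 change of -2.17 ± 0.14 (2.45e-09). DAC alone gave 0.20 ± 0.14, with a 95% interval of -0.09 to 0.49.

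CXCL8, the main neutrophil chemokine, rose with ATRA alone and fell wherever DAC was given. Its normalised counts were 3272, 2548 and 2342 in untreated, 621, 794 and 1049 with DAC, 7884, 9548 and 7481 with ATRA, and 918, 669 and 636 with DAC+ATRA. Every library with DAC lay below every library without it, ATRA lay above untreated, and the 2 groups with DAC overlapped. The log2 change against untreated was -1.75 ± 0.17 under DAC (limma, adjusted p = 1.27e-06), 1.62 ± 0.17 under ATRA (4.76e-07) and -1.88 ± 0.17 under both drugs (6.65e-08). Adding ATRA to DAC gave -0.13 ± 0.17, with an interval of -0.50 to 0.23.

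CCL3 and TNF were close to absent from the table. CCL3, a chemokine for monocytes and T cells, held 15 reads in the 12 libraries, 13 of them in ATRA (1, 9 and 3 per library) and 2 in untreated replicate 3. TNF held 3 reads in all, 1 in each ATRA library. For CCL3 the ratio of ATRA to untreated was 7.31 (exact 95% interval 1.65 to 66.7, counting error only). Neither gene passed the filter on low values, so neither is among the genes fitted, and the reads of both can be lost or moved in the counting: 2 of the 3 CCL3 rows and 7 of the 8 TNF rows did not match GENCODE release 44, and CCL3 has near-identical gene copies. The 1 row of each that matched held no read.

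**Figure D1:**
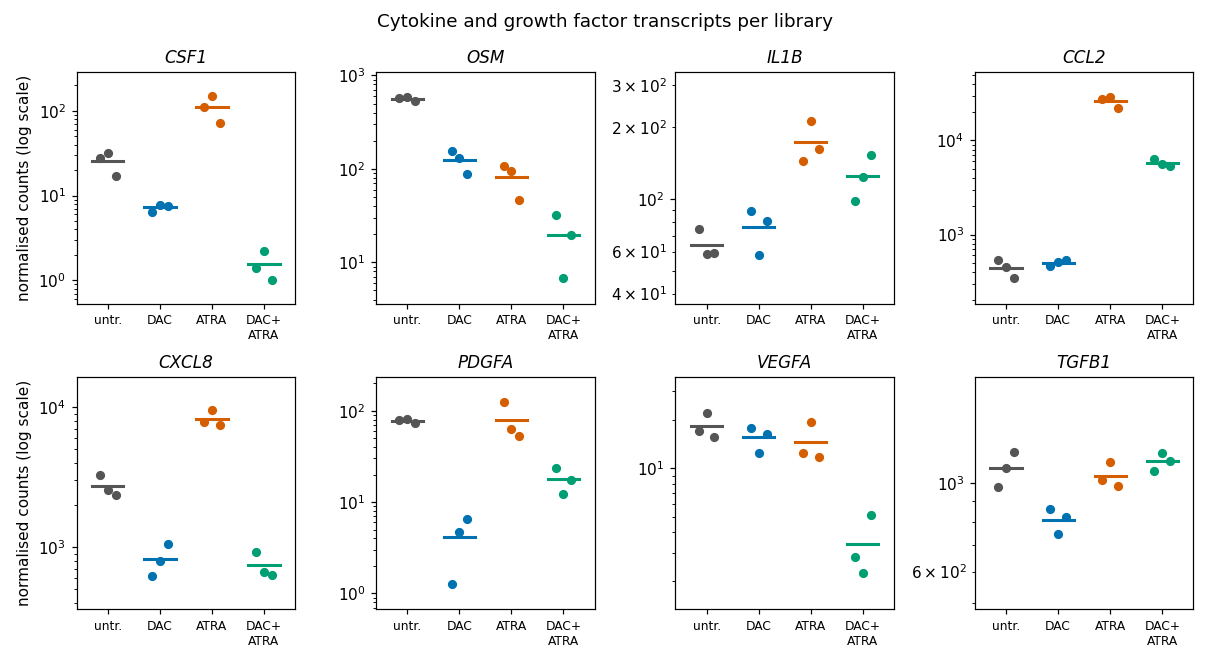
Normalised counts of the 8 tested members (log scale, 1 panel per gene) in the 3 libraries of each group; points are libraries and bars group means. CCL2 is high in both groups with ATRA, CXCL8 and CSF1 are high with ATRA alone, and OSM falls from a mean of 565 in untreated to 19.5 in DAC+ATRA.

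PDGFA, a ligand of the PDGF receptors with the CpG-rich start shown above, fell most under DAC alone. It was at 79.3, 80.4 and 74.0 normalised counts in untreated, 1.27, 4.70 and 6.53 with DAC, 124, 62.5 and 52.7 with ATRA, and 23.8, 12.4 and 17.4 with DAC+ATRA. DAC lay below all other groups, DAC+ATRA lay between DAC and the groups without it, and ATRA spread on both sides of untreated because replicate 1 stood high. DAC libraries held 10 PDGFA reads against 319 in untreated, a ratio of 18.2 (exact 95% interval 9.75 to 38.3).

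The limma change of PDGFA was -4.10 ± 0.41 under DAC (adjusted p = 1.25e-06) and -2.11 ± 0.41 under both drugs (3.83e-04), and under ATRA alone it was -0.07 ± 0.41 (0.917). DAC+ATRA was above DAC by 1.99 ± 0.41 (limma, adjusted p = 0.00101), a call lost in a fit of only those 2 groups (0.0194). It was below ATRA by -2.04 ± 0.41 (limma, adjusted p = 0.00131), a call lost without ATRA replicate 1 (0.0111) and without DAC+ATRA replicate 2 (0.0109).

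VEGFA, the principal growth factor of blood vessels, passed the threshold for a fall under both drugs and under neither drug alone. Its normalised counts were 17.1, 21.9 and 15.7 in untreated, 17.8, 12.5 and 16.3 with DAC, 12.5, 19.3 and 11.7 with ATRA, and 2.80, 2.25 and 5.11 with DAC+ATRA. The 3 DAC+ATRA libraries lay below the other 9, which overlapped by group. Its log2 change under both drugs was -2.17 ± 0.39 against untreated (limma, adjusted p = 2.02e-04), -1.96 ± 0.39 against DAC (8.31e-04) and -1.85 ± 0.39 against ATRA (0.00220). The last was lost without ATRA replicate 2 (0.0192) and without DAC+ATRA replicate 2 (0.0125), and the fall against DAC in a fit of only those 2 groups (0.0125). All 174 VEGFA reads stood in 1 of its 18 rows, so these values speak for that row.

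TGFB1, a regulator of growth and immunity, moved least. It was at 978, 1086 and 1194 normalised counts in untreated, 861, 743 and 823 with DAC, 1016, 1127 and 982 with ATRA, and 1072, 1186 and 1133 with DAC+ATRA. DAC lay below the other 3 groups, which overlapped. The change with DAC against untreated was -0.42 ± 0.11 (limma, adjusted p = 0.0118), just short of the threshold, and was called by DESeq2 (0.00246) and without DAC replicate 3 (0.00739). DAC+ATRA was above DAC by 0.48 ± 0.11 (limma, adjusted p = 0.00206), a call lost without any 1 of DAC replicate 2, DAC+ATRA replicate 2 and DAC+ATRA replicate 3 (up to 0.0156).

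Counted over the 8 tested members, DAC changed 4 genes, all lower, where 3.67% of all genes tested were called lower and 7.97% either way. ATRA changed 5, of which CCL2, CSF1, CXCL8 and IL1B were higher and OSM was lower, against 26.0% of all genes (12.1% higher, 14.0% lower). DAC+ATRA changed 7, with CCL2 and IL1B higher and CSF1, CXCL8, OSM, PDGFA and VEGFA lower, against 28.9% (14.5% higher, 14.4% lower). The median log2 change of the 8 was -1.03 with DAC, 0.68 with ATRA and -1.995 with DAC+ATRA, while the median of all genes lay between -0.04 and 0.00. The 3 comparisons share the untreated libraries.

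**Figure D2:**
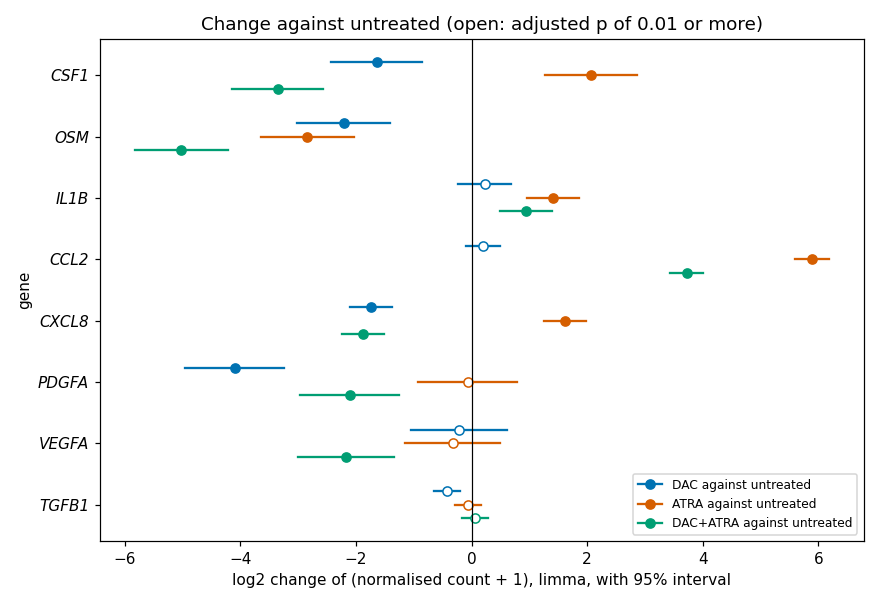
Log2 change of the 8 tested members against untreated for each treatment, from limma, with 95% intervals; filled points were called and open points were not. CSF1 and CXCL8 lie at 2.06 and 1.62 with ATRA and at -3.36 and -1.88 with DAC+ATRA.

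Between treated groups, all labelled 72 h, DAC+ATRA differed from DAC in 6 of 8 members, against 18.8% of all genes (9.04% higher, 9.74% lower). CCL2, PDGFA and TGFB1 were higher with ATRA added and OSM, VEGFA and CSF1 were lower, and CCL2 stood 11.5 times and OSM 6.41 times apart by their means. IL1B was 0.71 ± 0.22 higher (limma, adjusted p = 0.0187) and was not called. DAC+ATRA differed from ATRA in 6 members as well, all lower, where 5.46% of all genes tested were lower and 11.9% called either way. Those 6 were CSF1, CXCL8, OSM, CCL2, PDGFA and VEGFA, with log2 changes from -5.42 to -1.85. Without DAC+ATRA replicate 2, 4 of them were called.

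Whether DAC acted in the same way with and without ATRA was tested as the interaction, the log2 change from ATRA to DAC+ATRA minus that from untreated to DAC. It was called in CSF1, CCL2 and CXCL8, each with a more negative DAC effect under ATRA, against 1.60% of all genes called either way and 0.874% in that direction. For CSF1 the DAC effect was -1.64 without and -5.42 with ATRA, a difference of -3.78 ± 0.53 (limma, adjusted p = 2.99e-04). For CCL2 it was 0.20 without and -2.17 with ATRA, a difference of -2.37 ± 0.20 (limma, adjusted p = 1.94e-06). For CXCL8 it was -1.75 and -3.50, a difference of -1.75 ± 0.25 (limma, adjusted p = 2.99e-04). These 3 calls were kept in every alternative run. All of those runs used untreated libraries, labelled 96 h beside 72 h for the treated ones. Time and treatment thus cannot be told apart in the interaction either.

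PDGFA went the other way, with a DAC effect of -4.10 without and -2.04 with ATRA. That difference of 2.06 ± 0.58 was not called (limma, adjusted p = 0.0572) but was called without DAC replicate 3 (0.00946). VEGFA gave -1.63 ± 0.56 (limma, adjusted p = 0.134), IL1B -0.70 ± 0.31 (0.287) and TGFB1 0.54 ± 0.15 (0.0588).

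**Figure D3:**
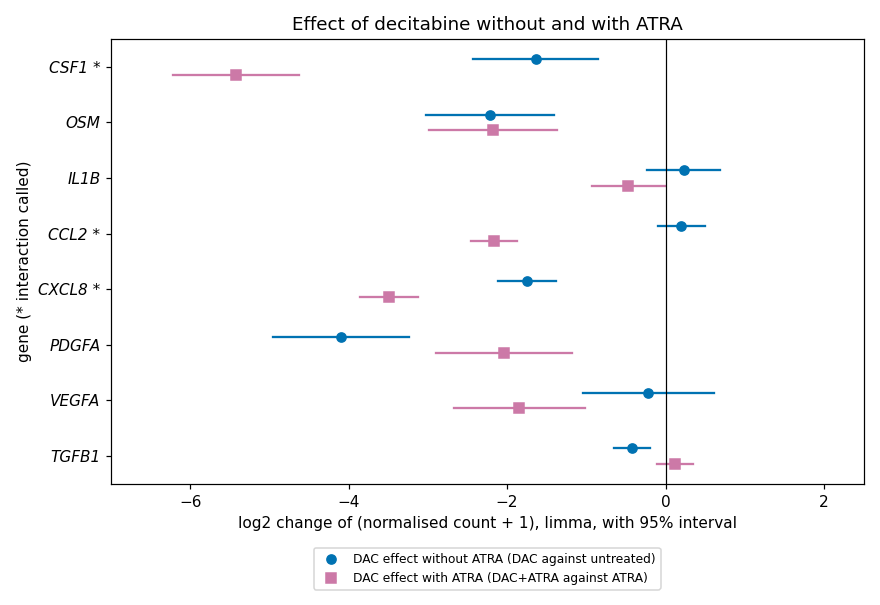
Log2 effect of DAC without ATRA (circles, DAC against untreated) and with ATRA (squares, DAC+ATRA against ATRA) for the 8 tested members, from limma, with 95% intervals; an asterisk marks a called interaction. The pair of points is farthest apart in CSF1 (-1.64 and -5.42) and coincides in OSM (-2.21 and -2.18).

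The table lists transcripts, and a read that fits several listed transcripts may not have been counted for any. Of the 35 member rows that match GENCODE release 44, 21 share every exon base with another listed row, and 1 of those 21, the main CCL2 row, held reads. Of the 14 rows with exon bases of their own, 12 held reads. The VEGFA row with reads, ENST00000230480.10, has 110 such bases, on chromosome 6 between 43771992 and 43772101, whereas the other 17 VEGFA rows have none. The share of reads in a gene's most read row was stable over the groups for CSF1 (97.4% to 100% of reads per library), CCL2 (91.5% to 96.0%) and PDGFA (88.2% to 100%). For OSM it was 92.2% to 94.8% in untreated, 94.0% to 95.9% with DAC, 82.1% to 92.5% with ATRA and 94.7% to 100% with DAC+ATRA. For CXCL8 it was 81.3% to 88.2% in the libraries of the other groups and 78.3% to 80.8% with DAC+ATRA, and both CXCL8 rows were lower with DAC and higher with ATRA by their means (2299, 695, 7174 and 591 normalised counts in untreated, DAC, ATRA and DAC+ATRA for the first, 422, 126, 1130 and 150 for the second).

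Receptors of these ligands were taken from a list of 23 genes, of which 13 were tested. ATRA changed 4 of them, with CCR1, CCR2 and CXCR2 higher and FLT1, a VEGF receptor, lower, against 26.0% of all genes tested. CCR1 binds CCL3, CCR2 binds CCL2, and CXCR2 binds CXCL8. CCR2 was at 495, 525 and 467 normalised counts in untreated, 435, 343 and 450 with DAC, 3467, 3532 and 3573 with ATRA, and 2522, 2180 and 2104 with DAC+ATRA. Both groups with ATRA were thus far above both groups without it, and were apart from each other. Its log2 change was 2.83 ± 0.11 under ATRA (limma, adjusted p = 3.04e-13) and 2.19 ± 0.11 under both drugs (1.71e-11).

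CCR1 rose from 893 ± 52.8 normalised counts (SD, n = 3) to 7834 ± 612 with ATRA and 5192 ± 172 with DAC+ATRA. CCR1 and CCR2 were lower with DAC+ATRA than with ATRA by log2 changes of -0.59 ± 0.13 and -0.64 ± 0.11 (limma, adjusted p = 0.00224 and 4.90e-04), beside the -2.17 of the ligand CCL2, a difference between genes that was not tested. The CCR1 call was lost without any 1 of ATRA replicate 1 and DAC+ATRA replicates 2 and 3 (adjusted p up to 0.0144). DAC alone changed 2 receptors, CCR1 lower by -0.58 ± 0.13 and CXCR2 higher by 0.52 ± 0.12 (limma, adjusted p = 0.00378 and 0.00674), against 7.97% of all genes. Neither call held in a fit of only those 2 groups (0.0564 and 0.0545). The CCR1 call was also lost without any 1 of replicates 1 and 2 of untreated and of DAC (up to 0.0270), and that of CXCR2 without any 1 of the untreated libraries and of DAC replicates 1 and 3 (adjusted p up to 0.0379). DAC+ATRA changed 5, with CCR1, CCR2 and CXCR2 higher and FLT1 and PDGFRB, a PDGF receptor, lower, against 28.9% of all genes. The PDGFRB call was lost without any 1 of the untreated libraries and of DAC+ATRA replicates 1 and 2 (up to 0.0385).

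FLT1 held 87 reads in untreated, 17 with DAC, 8 with ATRA and 2 with DAC+ATRA, the last a ratio of 27.3 to untreated (exact 95% interval 7.34 to 229). Leaving out untreated replicate 1 ended its call under ATRA alone (limma, adjusted p = 0.0135). CSF1R, the receptor of CSF1, was at 566 ± 151 normalised counts in untreated, 506 ± 169 with DAC, 924 ± 45.7 with ATRA and 840 ± 137 with DAC+ATRA. Its change with ATRA, 0.74 ± 0.22, was not called (limma, adjusted p = 0.0107), and under both drugs, where CSF1 was nearly gone, it was 0.59 ± 0.22 (0.0356). OSMR and LIFR, receptor chains for OSM, were listed at 0 in all 12 libraries. Their shared partner chain IL6ST was read in every library. A listed 0 does not show absence, since reads that fit several listed transcripts may not have been counted.

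**Figure D4:**
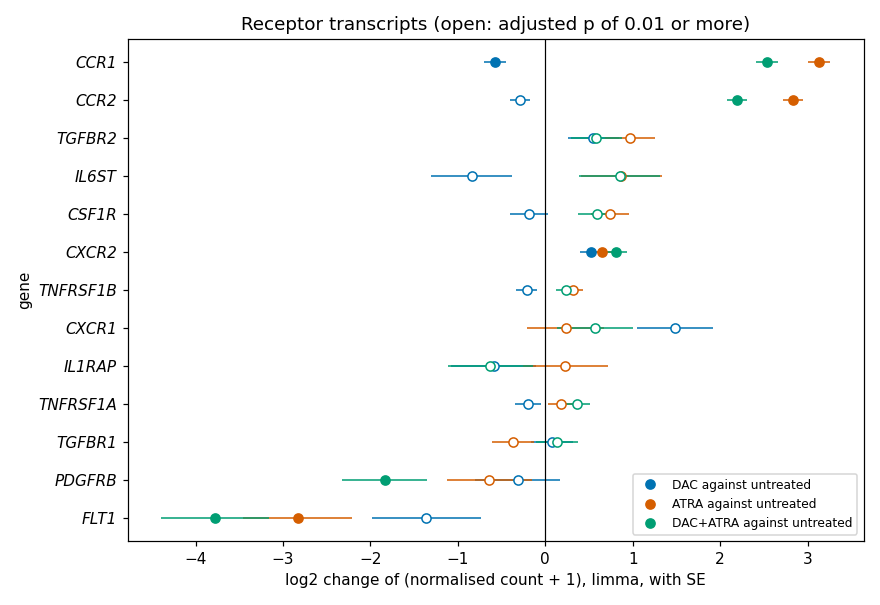
Log2 change of the 13 tested receptor genes against untreated for each treatment, from limma, with SE bars; filled points were called and open points were not. CCR1 and CCR2 lie at 3.13 and 2.83 with ATRA, and FLT1 lies at -2.83.

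Genes that process or release these factors were 14, with 8 tested. ATRA changed 4 of them, all higher, where 12.1% of all genes tested were called higher and 26.0% either way. THBS1, which activates latent TGFB1, was at 106 ± 12.2 normalised counts in untreated (SD, n = 3), 37.0 ± 11.6 with DAC, 3790 ± 437 with ATRA and 7645 ± 290 with DAC+ATRA. It was thus lower with DAC alone and higher with DAC when ATRA was present, an interaction of 2.55 ± 0.24 (limma, adjusted p = 3.45e-06), opposite in sign to those of CSF1, CCL2 and CXCL8. CASP1, the protease that cleaves the IL1B precursor, rose by 1.49 ± 0.15 with ATRA and 1.15 ± 0.15 with DAC+ATRA (limma, adjusted p = 1.77e-07 and 4.87e-06), and RHBDF2, a partner of the TNF-releasing protease, rose by 1.55 ± 0.40 with ATRA (0.00477). The fourth was ADAM17, that protease itself, at 0.41 ± 0.11 (0.00597). Without any 1 of the untreated libraries neither RHBDF2 nor ADAM17 was called, and the same held without ATRA replicate 2 (adjusted p up to 0.0294). RHBDF2 was also lost without ATRA replicate 3 (0.0326) and ADAM17 without ATRA replicate 1 (0.0326).

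Of 16 genes of the NF-kB pathway, 12 were tested, and ATRA changed BCL3, NFKBIA and NFKB1, all higher, which is 3 of 12 where 26.0% of all genes tested were called. NFKBIA, the NF-kB inhibitor that the pathway itself induces, was at 50.5, 62.5 and 54.0 normalised counts in untreated, 77.6, 116 and 39.2 with DAC, 184, 314 and 268 with ATRA, and 132, 73.2 and 102 with DAC+ATRA. ATRA lay above all other groups, and DAC overlapped with untreated and with DAC+ATRA. NFKBIA, BCL3 and TNFAIP3 were lower with DAC+ATRA than with ATRA, by log2 changes of -1.32 ± 0.31, -1.53 ± 0.21 and -1.31 ± 0.26 (limma, adjusted p = 0.00425, 3.25e-05 and 0.00126). These 3 were the list's calls in that comparison, 3 of 12 tested, where 5.46% of all genes were called lower and 11.9% either way. The NFKBIA call was lost without any 1 of replicates 2 and 3 of either group (up to 0.0347).

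DAC+ATRA against untreated changed 5 of the 12, where 28.9% of all genes were called. TNIP2, a partner of the inhibitor TNFAIP3, was higher by 1.33 ± 0.38, NFKB1 by 1.06 ± 0.26, BCL3 by 0.95 ± 0.21 and NFKBIB by 0.56 ± 0.16, and TNFAIP3 was lower by -1.06 ± 0.26 (limma, adjusted p = 0.00836, 0.00316, 0.00120, 0.00750 and 0.00316). Of these, BCL3 was called on leaving out any 1 library. The NFKBIB call was lost without any 1 of the 6 libraries compared (adjusted p up to 0.0274). Dropping 1 of the untreated libraries ended those of TNIP2 and TNFAIP3, as did dropping DAC+ATRA replicates 1 or 2 for TNIP2 (up to 0.0399) and 1 or 3 for TNFAIP3 (up to 0.0180). That of NFKB1 was lost without any 1 of untreated replicates 1 and 3 and DAC+ATRA replicates 1 and 2 (up to 0.0251). With a replicate block TNIP2 and NFKBIB were not called (0.0131 for both).

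All 13 genes on the list of proteins that decay or stabilise such mRNAs were tested. ZFP36 (tristetraprolin), which marks cytokine mRNAs for decay, was at 197 ± 22.5 normalised counts in untreated (SD, n = 3), 159 ± 10.1 with DAC, 487 ± 87.2 with ATRA and 205 ± 18.2 with DAC+ATRA. ZC3H12A (regnase-1), an RNase that cuts them, was at 195 ± 13.004, 184 ± 24.95, 378 ± 42.0 and 170 ± 6.87. Both therefore rose with ATRA, by 1.30 ± 0.15 and 0.95 ± 0.14 on the log2 scale (limma, adjusted p = 1.12e-06 and 2.50e-05), and were lower with DAC+ATRA than with ATRA, by -1.23 ± 0.15 and -1.14 ± 0.14 (8.08e-06 and 1.01e-05). ATRA changed 5 of the 13, against 26.0% of all genes. The others were ZFP36L1 (1.21 ± 0.34) and ZC3H12D (0.46 ± 0.12), both higher, and ZFP36L2 (-0.49 ± 0.12), lower, all relatives of the former pair (limma, adjusted p = 0.00777, 0.00445 and 0.00231). The first 2 calls were lost without any 1 of the untreated libraries, and also without ATRA replicates 1 or 2 for ZFP36L1 (up to 0.0628) and 2 or 3 for ZC3H12D (up to 0.0273). That of ZFP36L2 was lost without untreated replicates 2 or 3 or ATRA replicate 2 (up to 0.0222).

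DAC+ATRA differed from ATRA in 5 of the 13, against 11.9% of all genes. Besides ZFP36 and ZC3H12A, which were lower, these were ZC3H12D, ZFP36L2 and KHSRP, another decay factor, higher by 0.66 ± 0.12, 0.63 ± 0.12 and 0.56 ± 0.14 (limma, adjusted p = 4.67e-04, 5.89e-04 and 0.00743). The KHSRP call was lost without any 1 of the DAC+ATRA libraries and of ATRA replicates 2 and 3 (up to 0.0552), and in a fit of only those 2 groups (0.0153). The list thus did not move one way. Against untreated, DAC+ATRA changed 1 of the 13, ZC3H12D, higher by 1.11 ± 0.12 (limma, adjusted p = 3.55e-07), where 28.9% of all genes were called. ZC3H12A was the list's called interaction, 1 of 13 where 1.60% of all genes were called, at -1.05 ± 0.20 (limma, adjusted p = 0.00409). It was lost without any 1 of the untreated and DAC+ATRA libraries and of ATRA replicates 2 and 3 (up to 0.0184).

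Among 62 other secreted factors, 30 were tested. DAC changed 9 (2 higher, 7 lower), ATRA 16 (8 and 8) and DAC+ATRA 14 (7 and 7), where 7.97%, 26.0% and 28.9% of all genes tested were called. The median log2 change of the 30 was -0.39 with DAC, 0.28 with ATRA and -0.03 with DAC+ATRA, beside medians of all genes between -0.04 and 0.00. INHBA, the activin A subunit, was lower in all treatments as OSM was, with 1239 ± 132 normalised counts in untreated (SD, n = 3), 292 ± 49.6 with DAC, 182 ± 83.6 with ATRA and 66.4 ± 2.69 with DAC+ATRA. TGFA, a ligand of the EGF receptor, was higher in all of them, at 8.496 ± 0.63, 54.6 ± 6.41, 28.1 ± 9.80 and 86.1 ± 10.7. EREG, another EGF receptor ligand, fell by 2.13 ± 0.17 on the log2 scale with DAC+ATRA (limma, adjusted p = 7.41e-09).

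Some of these factors had few or no reads without ATRA. CXCL12, the stromal chemokine for CXCR4, was listed at 0 in the 6 libraries without ATRA and held 142 reads in the 3 ATRA libraries and 86 in DAC+ATRA. The exact 95% interval of its ratio of ATRA to untreated began at 42.7 and had no upper end. With a floor of 3 reads over the group in place of 0, that ratio was 53.2. IGF1, a growth factor, held 4 reads in untreated, 516 with ATRA and 278 with DAC+ATRA, ratios of 145 (exact 95% interval 56.3 to 534) and 111 (42.7 to 409). IL1RN, the natural antagonist of the IL1B receptor, fell where IL1B rose, from 173 reads in untreated to 15 with ATRA and 8 with DAC+ATRA, ratios of 10.3 (6.05 to 18.7) and 13.6 (6.74 to 32.0). PDGFB, the sister gene of PDGFA, fell from 54 reads in untreated to 3 with DAC, a ratio of 10.3 (3.33 to 51.3), a call lost without any 1 of the untreated libraries and DAC replicate 1 (adjusted p up to 0.0249).

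CCL24, a chemokine for eosinophils, was the list's chemokine that fell with DAC, with a log2 change of -1.77 ± 0.22, and it rose under ATRA by 2.98 ± 0.22 (limma, adjusted p = 1.36e-05 and 2.07e-09). CXCL2, a neutrophil chemokine that shares the receptor CXCR2 with CXCL8, fell with ATRA, from 50 reads to 7, a ratio of 6.35 (exact 95% interval 2.87 to 16.6), whereas CXCL8 rose. The called interactions of this list were GDF15 (1.62 ± 0.28), HBEGF (1.20 ± 0.16) and TNFSF10 (-1.33 ± 0.25), with limma adjusted p of 0.00168, 1.37e-04 and 0.00376. These are 3 of 30 tested, where 1.60% of all genes were called. TNFSF10 was lost without any 1 of replicates 2 and 3 of untreated, ATRA and DAC+ATRA and of DAC replicate 2 (up to 0.0166). HBEGF was at 468 ± 20.9 normalised counts in untreated (SD, n = 3), 229 ± 29.2 with DAC, 2825 ± 260 with ATRA and 3167 ± 20.1 with DAC+ATRA, so that it kept its ATRA level when DAC was present while CCL2 did not.

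**Figure D5:**
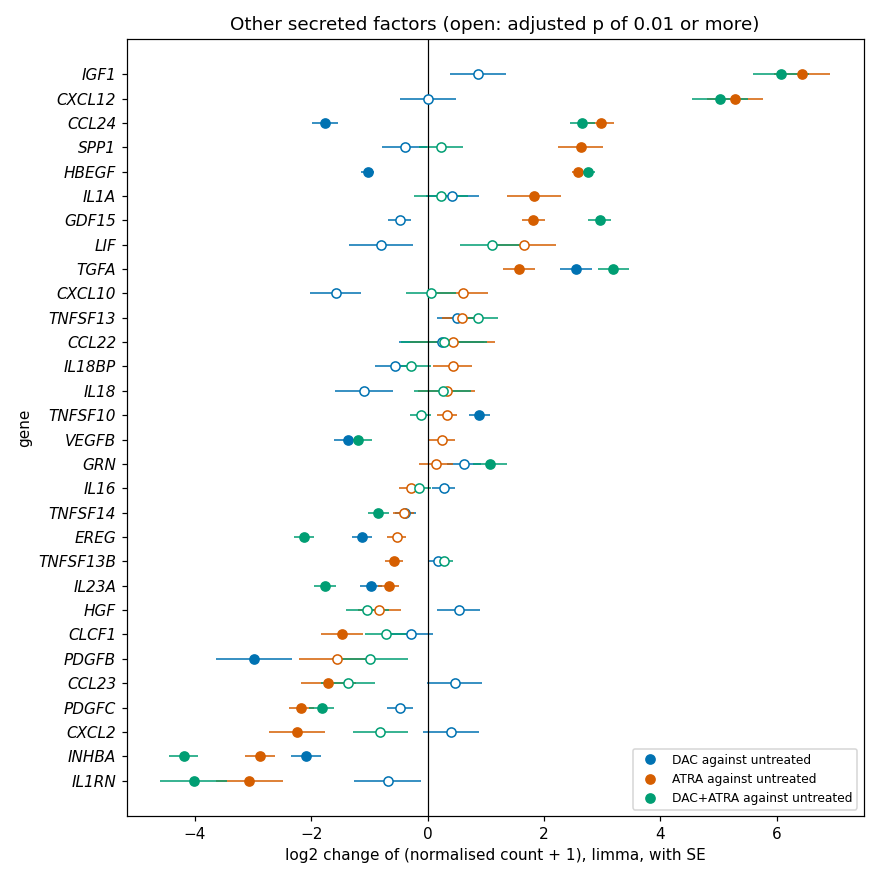
Log2 change of the 30 tested genes among the other secreted factors against untreated for each treatment, from limma, with SE bars; filled points were called and open points were not. IGF1 lies at 6.44 with ATRA and INHBA at -4.20 with DAC+ATRA; CXCL12 was at 0 reads in untreated, so its fitted value depends on the pseudocount.

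The genes whose log2 levels over the 12 libraries were most like those of a member, by Pearson's r, were taken from all tested genes as a description, with no test. The 12 libraries form 4 groups and share their size factors, so r mostly reflects the 4 group levels. The closest were ABRAXAS1 for CSF1 (0.978), SLC38A2 for OSM (0.972), CTSB for IL1B (0.953), CD1D for CCL2 (0.994), NEDD9 for CXCL8 (0.983), MED13 for PDGFA (0.951), PTPRH for VEGFA (0.973) and USP6NL for TGFB1 (0.877). Next in order came HECA and RASGEF1B for CSF1, RSPH3 and INSIG1 for OSM, IQCD and BTN3A1 for IL1B, CD300LB and ADAM28 for CCL2, TSC22D3 and KBTBD2 for CXCL8, ZMYM4 and IL7R for PDGFA, NTN1 and SEPTIN6 for VEGFA, and SLC2A1 and ZNF182 for TGFB1.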

How the data were processed

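RNA of MOLM-13 cells was sequenced in 12 libraries, 3 per group. Per the labels and methods, the authors depleted ribosomal RNA, prepared stranded libraries, used STAR for alignment on hg38 and HTSeq for counting, and tested protein-coding transcripts with DESeq2. No versions are given in the sources used here. The deposited values are a normalised signal per Ensembl transcript, which the authors made by dividing read counts by 1 size factor per library. All values were whole multiples of 1 step per library (tolerance 0.1 reads), so reads were recovered by division. The untreated libraries were read from the columns headed CTRL. The strand setting of the counting is not given in the sources used here.

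Rows were summed per gene symbol. Gene types and coordinates came from GENCODE release 44 (GRCh38, the assembly of hg38), which 88.9% of rows matched. The filter kept protein-coding genes that reached 10 normalised counts in 3 or more libraries. They were fitted in limma 3.58.1 (R 4.3.3, lmFit and eBayes with trend) on log2(normalised count + 1), all 12 libraries in 1 fit without covariates. Benjamini-Hochberg adjustment ran over all 10642 genes of a comparison, and the threshold was 0.01. A fold change on this scale understates that of low genes. Ratios of reads carry exact 95% intervals for counting error only. Other settings tried were count tests of the recovered reads (DESeq2 1.42.0, edgeR 4.0.16), total-count and TMM scaling, pseudocounts of 0.1 and 5, other filters, all symbols, only the compared groups, a replicate block, a threshold of 0.05 and leaving out each library. The fit was tested on simulated data. Named genes were the members, the 3 largest called changes per list, direction and treatment, and the 3 genes most like each member; others were named after their values were seen, to account for small counts, as were CSF1R, OSMR, LIFR, IL6ST, NFKBIA and TNFAIP3 in some comparisons. The members and gene lists were chosen with earlier results of these data known. Some genes of these lists and of the marker lists are not reported here.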

Additional observations from a re-analysis of the deposited data

Results flagged for a closer look

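The DAC effect differed with and without ATRA, by the test of the interaction in limma, in 3 of the 8 tested members. Of all genes tested, 1.60% were called either way and 0.874% in the direction of these 3. The difference was -2.37 on the log2 scale for CCL2, -3.78 for CSF1 and -1.75 for CXCL8. In each gene the 3 DAC+ATRA libraries lay below the 3 ATRA libraries, and how often this held over all genes was not counted. With DAC+ATRA, CSF1 rested on 4 reads, whereas CCL2 held 14789 and CXCL8 1873. The range over all alternatives was -2.52 to -2.20 for CCL2, -4.39 to -2.81 for CSF1 and -1.94 to -1.56 for CXCL8, with an adjusted p of at most 0.00262 in each. Untreated libraries, labelled 96 h beside 72 h for the treated ones, enter each of these values.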

How the results depend on the processing

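Of 898 recomputed changes of a member, 858 kept their direction and side of the threshold, 22 lost the call, 6 gained it and 12 turned in sign. All 12 were uncalled, with turned values from -0.44 to 0.17. Those 12 were PDGFA under ATRA (0.056 by DESeq2, 0.042 by edgeR, and -0.43 to 0.17 on leaving out 1 library), TGFB1 under ATRA (-0.13 to 0.013) and under both drugs (-0.011 to 0.13), CXCL8 in DAC+ATRA against DAC (-0.32 to 0.059) and the OSM interaction (-0.040 with a pseudocount of 0.1, and -0.44 to 0.61). In a fit of only the compared groups, 3 members rather than 6 were called in DAC+ATRA against DAC, with fewer libraries to estimate the spread. Leaving out 1 library gave 3 to 5 called members for DAC against untreated, 4 to 6 for DAC+ATRA against ATRA, 5 to 6 against DAC, 6 to 7 against untreated, 3 to 4 for the interaction and 5 for ATRA. A replicate block left these counts at 4, 6, 6, 7, 3 and 5 and changed no member's call. Among list genes named in the report it ended the calls of ZC3H12A (interaction, adjusted p = 0.0109), ADAM17 and ZFP36L1 (ATRA, 0.0116 and 0.0102), KHSRP (DAC+ATRA against ATRA, 0.0120), and TNIP2 and NFKBIB (both drugs, 0.0131). Same-numbered libraries correlated between -0.26 and 0.11 in their deviations, and 1 of 12 correlated best with its own number. Over all genes the alternatives gave 371 to 1638 calls for DAC, 848 in the reported fit, 2130 to 3876 for ATRA (2772), 2362 to 4268 for DAC+ATRA (3077), 1461 to 3055 against DAC (1998), 819 to 2244 against ATRA (1270) and 106 to 386 for the interaction (170). Few reads limit CSF1, PDGFA and VEGFA, whose changes shrank with a pseudocount of 5, to -3.22 for PDGFA with DAC and to -2.19 for CSF1 and -1.48 for VEGFA with DAC+ATRA, all against untreated.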
